A study of Mus musculus with 16 samples.

Results

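The 9 genes described here encode enzymes that act on ethanol, acetaldehyde, other aldehydes, and acetate. They are Adh5, Cat, Aldh2, Aldh1a1, Aldh3a2, Aldh7a1, Aldh9a1, Acss1, and Acss2, and they were taken by name from the 19999 genes of the count table. No measured value entered that choice as a rule, though earlier results of these data were known. Their levels were followed in single nuclei of the medial PFC of 16 male mice, by cell class and by group. All 9 were found in the table, with 630 UMIs (unique molecular identifiers, each standing for 1 counted RNA molecule) for Aldh1a1, the scarcest, and 13106 for Acss2.

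Ethanol is oxidized to acetaldehyde, acetaldehyde to acetate, and acetate is joined to coenzyme A. In the liver the first step belongs mainly to the classical alcohol dehydrogenases, whereas in the brain catalase and the cytochrome P450 enzyme Cyp2e1 are thought to carry much of it. Aldehyde dehydrogenases of several families then remove acetaldehyde, the aldehydes of lipid peroxidation, and the aldehydes of amino acid breakdown. The acetyl-CoA synthetases turn acetate into acetyl-CoA, for the citric acid cycle in mitochondria and for lipid synthesis and histone acetylation outside them.

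Each of the 4 groups held 4 mice, all labelled 22 weeks of age. WT control and WT alcohol mice were labelled B6;129. 3xTg-AD mice carry transgenes for human amyloid precursor protein with the Swedish mutation and for mutant human tau, beside a mutant presenilin 1 knock-in. The study's methods give the 3xTg-AD line the same B6;129 background, and the labels do not give litters. Alcohol mice of both genotypes received ethanol and pyrazole and repeated cycles of ethanol vapor. Control mice of both genotypes received pyrazole in saline and air. All 16 mice were therefore given pyrazole, an inhibitor of alcohol dehydrogenase, and tissue was taken days after the last exposure and after a water maze test.

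The table held 114512 nuclei and 216742276 UMIs, with 4955 to 9096 nuclei and 9622031 to 17544364 UMIs per mouse and a median of 1543 UMIs per nucleus. Marker genes placed 78052 nuclei in 7 classes, and 36460 nuclei (31.8%) stayed unnamed, 29904 of them in 2 clusters with few UMIs. The classes were 50087 glutamatergic neurons, 10121 GABAergic neurons, 7746 astrocytes, 3294 microglia and perivascular macrophages, 2941 oligodendrocytes, 2475 oligodendrocyte precursor cells (OPCs), and 1388 vascular and leptomeningeal cells. Each name means that the nuclei resembled the class by its markers. An unnamed cluster of 2419 nuclei had 10 of 11 astrocyte markers raised. Another, of 2437 nuclei, was high in the GABAergic marker Gad1, and 39.7% of it came from a single mouse. The named classes may therefore lack nuclei like these. All markers were highest in their own class in 6 of the 7, and 4 of 7 were in glutamatergic neurons. The enzymes were kept out of the genes that drew the clusters. Gm42418, a transcript that overlaps ribosomal RNA sequence, made up 1.79% to 2.90% of UMIs in 3 libraries (WT control mice 26 and 27 and 3xTg-AD mouse 12) and 0.206% to 0.425% in the other 13. Libraries shared 1694 barcodes, 3 to 27 for any pair.

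RNA from outside the nucleus is counted in droplets too. Slc17a7, the vesicular glutamate transporter of excitatory neurons, was read at 717 ± 71.2 CPM (counts per 1000000 UMIs of the class; SD, n = 16) in glutamatergic neurons and at 757 ± 88.2 CPM in the unnamed nuclei with few UMIs. The other classes held it too, at a median over mice of 27.7% of the few-UMI level in GABAergic neurons, 45.5% in astrocytes, 62.7% in oligodendrocytes, 52.8% in OPCs, 66.5% in microglia, and 53.1% in vascular and leptomeningeal cells. For glutamatergic neurons, Gad1 and Gad2, the enzymes of GABA synthesis, served in its place (16.6%). For each enzyme, the level in the few-UMI nuclei was multiplied by this fraction in each mouse, and the product, the tracer level, was set beside the level in the class. The comparison was added after the data were seen. Slc17a7 and Gad1 also limited which clusters were named. The fractions therefore depend on the naming, which favors low tracer levels in the named classes. The few-UMI nuclei stood in for free RNA, and empty droplets were not examined. A cluster of 13437 of them had 3 of 11 astrocyte markers raised, so they may hold RNA of their own cells. Tracer levels may thus also be too high, and for Aldh2 in oligodendrocytes subtraction left -13.9 CPM. Of 63 enzyme-by-class levels, 40 were above the tracer level, 4 below it, and 19 neither (permutation test over mice by sign flips, two-sided, adjusted over the 63 tests). All 9 enzymes were above it in astrocytes, 8 in glutamatergic neurons, 7 in vascular and leptomeningeal cells, 6 in GABAergic neurons, 4 each in OPCs and microglia, and 2 in oligodendrocytes. The same share over all genes was not computed, so these counts do not show a trait particular to the enzymes.

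**Figure D1:**
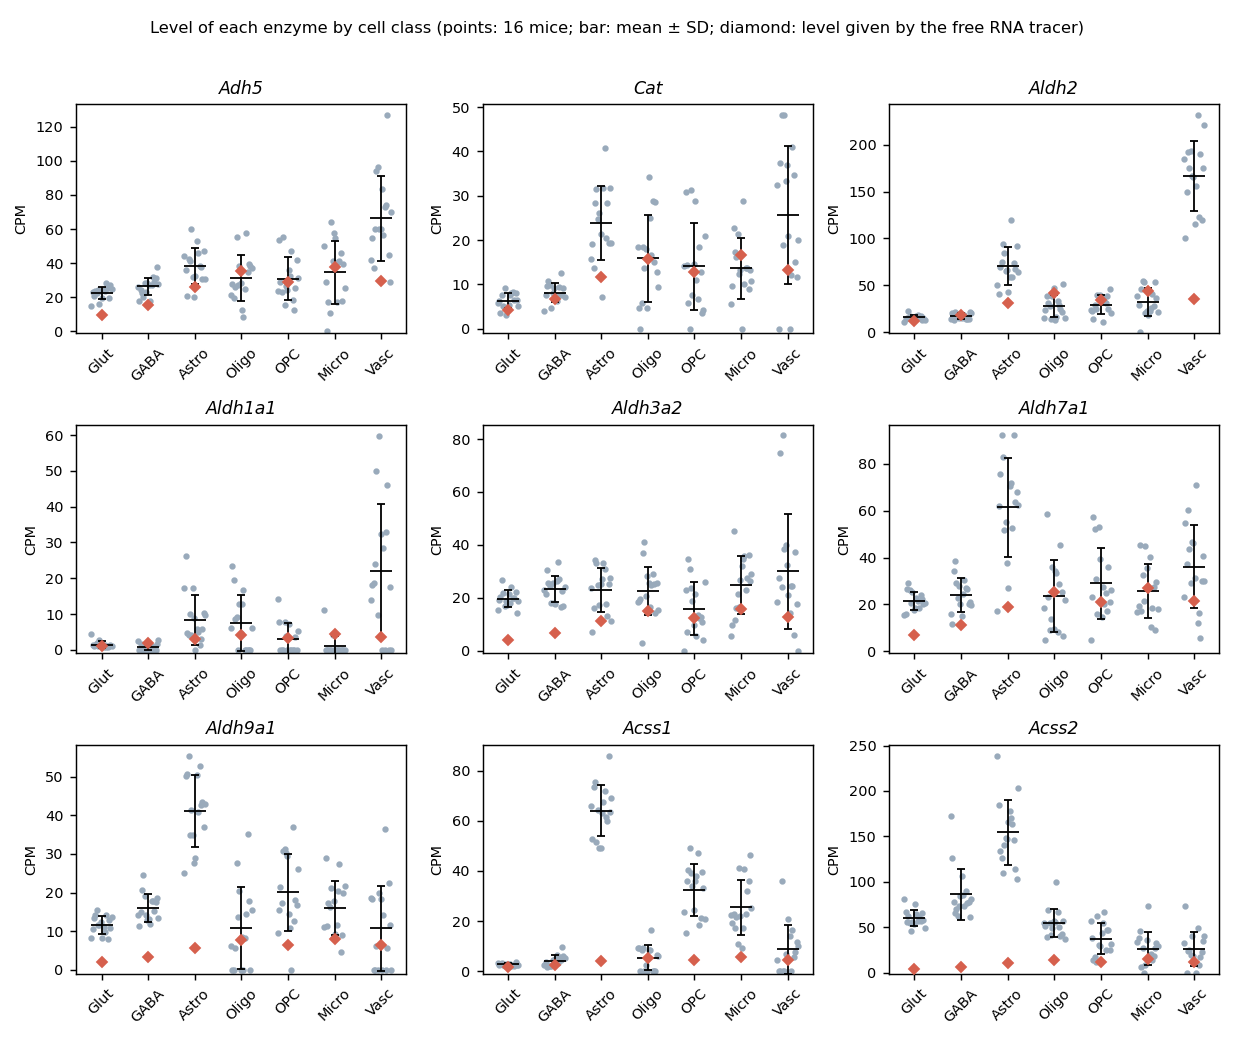
Level of each enzyme in CPM (linear axes, a scale per gene) in 7 cell classes (Glut, glutamatergic neurons; GABA, GABAergic neurons; Astro, astrocytes; Oligo, oligodendrocytes; Micro, microglia and perivascular macrophages; Vasc, vascular and leptomeningeal cells). Gray points are the 16 mice, black bars the mean ± SD, and red diamonds the mean tracer level. Aldh2 stood at 166 CPM in vascular and leptomeningeal cells against a tracer level of 35.1 CPM, whereas the oligodendrocyte and microglial means of Aldh2 lay below their diamonds.

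The mean of 5 was highest in vascular and leptomeningeal cells (Adh5, Cat, Aldh2, Aldh1a1, and Aldh3a2), and that of 4 in astrocytes (Aldh7a1, Aldh9a1, Acss1, and Acss2). The mean difference between the highest class and the next, taken within mice, passed the test for 7 of the 9, all but Cat and Aldh3a2. For Aldh1a1 and Aldh7a1 it was nevertheless smaller than its SD over mice (13.6 against 18.7 CPM and 25.4 against 25.6 CPM). The tests compared neighboring classes in the order of the means within each mouse, by the same permutation test, adjusted over all 54 pairs, of which 14 passed. The smallest p that the sign flips of 16 mice can give was 3e-05. When the tracer level was subtracted, no enzyme changed its highest class. Of the same 54 pairs, 27 then passed, 8 of them in the other direction, and 11 of the 14 were kept.

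Aldh2, the mitochondrial aldehyde dehydrogenase that oxidizes most acetaldehyde, had the largest step in CPM from the highest class to the next among the 9 enzymes. In vascular and leptomeningeal cells it ranged from 100 to 231 CPM over the 16 mice, with a median of 171 CPM (mean 166 ± 37.4 CPM). In astrocytes it ranged from 40.6 to 119 CPM, with a median of 67.2 CPM (mean 70.3 ± 20.1 CPM). The vascular level was the higher in 16 of 16 mice (adjusted p = 0.00033), and so was the astrocyte level beside microglia, the next class at 32.0 ± 15.2 CPM (adjusted p = 0.00033). The steps from microglia to OPCs (29.5 ± 9.77 CPM) and from OPCs to oligodendrocytes (27.6 ± 11.9 CPM) did not pass the test (adjusted p = 0.757 for both), whereas that from oligodendrocytes to GABAergic neurons did (adjusted p = 0.0130), and none of the 3 glial classes was above its tracer level. In microglia and oligodendrocytes Aldh2 was below it (differences of -12.0 and -13.9 CPM, adjusted p = 0.0136 and 0.00239). The order of oligodendrocytes and GABAergic neurons thus turned after subtraction of the tracer level, at -13.9 ± 13.5 and -0.99 ± 4.86 CPM. Glutamatergic neurons held 15.9 ± 2.58 CPM, above a tracer level of 11.4 CPM in 16 of 16 mice, and GABAergic neurons 17.1 ± 2.95 CPM, which did not differ from theirs of 18.1 CPM (adjusted p = 0.489).

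Within the vascular and leptomeningeal class, 658 of the 1388 nuclei could not be placed, and these held 160 of its 341 Aldh2 UMIs at 137 CPM (exact Poisson 95% interval 116 to 160, all mice pooled). All 8 endothelial markers were raised in 2 clusters, though 0 of them were among the 10 leading genes of either, and the 2 were set apart after their values were seen. In the larger, of 219 nuclei, Aldh2 stood at 196 CPM (142 to 262) from 44 UMIs. In the other, of 111 nuclei, it stood at 364 CPM (293 to 447) from 91 UMIs, but the genes that led that cluster included Ngp, Ltf, and Chil3, which are known from neutrophils and other myeloid cells, so it is not named here. The 201 nuclei like vascular leptomeningeal cells (VLMCs), the fibroblasts of the meninges and vessels, gave 142 CPM (96.5 to 201) from 31 UMIs. The 199 pericyte-like nuclei gave 84.8 CPM (47.5 to 140) from 15 UMIs. The interval of the 219 endothelial-like nuclei overlapped that of the VLMC-like nuclei and lay just above that of the pericyte-like nuclei. These intervals cover counting error only, and each mouse gave few such nuclei.

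Adh5, the class III alcohol dehydrogenase, which acts on formaldehyde bound to glutathione and on S-nitrosoglutathione and only weakly on ethanol, was also highest in vascular and leptomeningeal cells. It ranged there from 29.2 to 127 CPM with a median of 60.03 CPM (mean 66.4 ± 25.0 CPM), above astrocytes at 38.3 ± 10.7 CPM in 14 of 16 mice (adjusted p = 0.00377). The remaining classes lay between 22.6 ± 3.72 CPM in glutamatergic neurons and 34.6 ± 18.4 CPM in microglia, and no neighbors among them differed. After subtraction of the tracer level, 37.0 ± 25.2 CPM remained in vascular and leptomeningeal cells, 12.9 ± 4.02 CPM in glutamatergic neurons, 12.1 ± 11.0 CPM in astrocytes, and 11.1 ± 6.18 CPM in GABAergic neurons. Adh5 was not above its tracer level in oligodendrocytes, OPCs, or microglia.

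Cat, catalase, the peroxisomal enzyme that destroys hydrogen peroxide and can oxidize ethanol with it, was about level between 2 classes. It stood at 25.6 ± 15.5 CPM in vascular and leptomeningeal cells (range 0 to 48.2 CPM) and at 23.8 ± 8.34 CPM in astrocytes (range 7.22 to 40.9 CPM). The difference of 1.89 CPM had an SD over mice of 19.0 CPM (adjusted p = 0.848), and it turned to -0.049 on the log2(CPM + 10) scale. Cat was lowest in neurons, at 8.13 ± 2.202 CPM in GABAergic and 6.31 ± 1.74 CPM in glutamatergic neurons, below microglia at 13.6 ± 6.84 CPM (microglia above GABAergic neurons, adjusted p = 0.00956). The order of these means turned when the tracer level was subtracted, which left 1.998 ± 1.46 CPM in glutamatergic neurons, 1.35 ± 2.56 CPM in GABAergic neurons, and -3.05 ± 6.99 CPM in microglia. Microglia, OPCs, oligodendrocytes, and GABAergic neurons were not above the tracer level for Cat.

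Aldh1a1, a cytosolic retinaldehyde dehydrogenase that also accepts acetaldehyde, rested on few UMIs. In vascular and leptomeningeal cells it ranged from 0 to 59.8 CPM with a median of 18.5 CPM (mean 22.0 ± 18.7 CPM, 50 UMIs), against 8.36 ± 6.88 CPM in astrocytes (adjusted p = 0.0436, higher in 10 of 16 mice). This call was lost in 2 of 4 alternatives (highest adjusted p = 0.0894). Pooled over mice, 18 of the UMIs came from the 201 VLMC-like nuclei, at 82.4 CPM (exact Poisson 95% interval 48.8 to 130). The 219 endothelial-like nuclei gave 4.44 CPM (0.11 to 24.8) from 1 UMI, a lower interval that did not reach the first. The 199 pericyte-like nuclei gave 16.97 CPM (3.50 to 49.6) from 3 UMIs, an interval that overlapped the first, and the 658 nuclei that could not be placed gave 22.2 CPM (14.5 to 32.5) from 26 UMIs. In GABAergic neurons and microglia Aldh1a1 was below its tracer level.

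Aldh3a2, which oxidizes long-chain fatty aldehydes, had the flattest order. Its means ran from 15.9 ± 9.99 CPM in OPCs to 30.1 ± 21.7 CPM in vascular and leptomeningeal cells, and no neighboring classes differed (highest class against microglia, adjusted p = 0.689). It was above its tracer level in 6 of the 7 classes, all but OPCs.

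Of the astrocyte enzymes, Acss2 and Acss1 make acetyl-CoA from acetate. Acss2, found in the cytosol and the nucleus, ranged in astrocytes from 103 to 239 CPM with a median of 148 CPM (mean 155 ± 35.9 CPM). It stood at 86.5 ± 28.05 CPM in GABAergic neurons and at 60.3 ± 9.07 CPM in glutamatergic neurons, and each step was seen in 16 of 16 mice (both adjusted p = 0.00033). Oligodendrocytes held 54.2 ± 15.4 CPM, above OPCs at 37.6 ± 17.2 CPM (adjusted p = 0.0299), and microglia (26.6 ± 17.7 CPM) and vascular and leptomeningeal cells (25.9 ± 18.9 CPM) came last. It was above the tracer level in all 7 classes, and its level in the few-UMI nuclei was 23.0 ± 4.14 CPM.

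Acss1, the mitochondrial enzyme, was highest in astrocytes, OPCs, and microglia. In astrocytes it ranged from 49.2 to 86.0 CPM with a median of 63.9 CPM (mean 64.0 ± 10.2 CPM). OPCs followed at 32.3 ± 10.4 CPM, lower in 16 of 16 mice (adjusted p = 0.00033), and microglia at 25.4 ± 10.9 CPM, themselves above vascular and leptomeningeal cells at 8.65 ± 9.75 CPM (adjusted p = 0.00956). Oligodendrocytes stood at 5.31 ± 5.05 CPM, not above a tracer level of 5.19 CPM (adjusted p = 0.943) and not shown to differ from GABAergic neurons (adjusted p = 0.691). Neurons had the lowest means, at 4.16 ± 2.10 CPM in GABAergic and 2.66 ± 0.52 CPM in glutamatergic neurons (adjusted p = 0.0373), both above their tracer levels. After subtraction of the tracer level, 1.81 ± 1.66 and 1.20 ± 0.75 CPM were left in them (same permutation test, adjusted p = 0.387). Oligodendrocytes were then lowest, at 0.12 ± 5.52 CPM. Astrocytes held 41.5% of all Acss1 UMIs with 5.17% of the UMIs of the table. The 2 synthetases therefore shared the astrocyte peak and differed in neurons, where Acss2 was among the higher and Acss1 among the lower classes.

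Aldh7a1 breaks down an aldehyde of lysine catabolism, and Aldh9a1 acts on aldehydes of carnitine and polyamine metabolism. Aldh7a1 ranged in astrocytes from 17.3 to 92.4 CPM with a median of 63.1 CPM (mean 61.5 ± 21.2 CPM), above vascular and leptomeningeal cells at 36.1 ± 17.6 CPM in 12 of 16 mice (adjusted p = 0.00762). Aldh9a1 ranged there from 25.1 to 55.5 CPM with a median of 42.0 CPM (mean 41.2 ± 9.28 CPM), above OPCs at 20.1 ± 9.96 CPM in 15 of 16 mice (adjusted p = 0.00055). Both were above the tracer level in astrocytes, OPCs, and both kinds of neuron. In the 3 libraries with much Gm42418, Aldh7a1 in astrocytes was 17.3, 62.1, and 27.1 CPM, so the lowest values came from WT control mouse 26 and 3xTg-AD mouse 12.

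Much of the RNA of some enzymes lay outside the named classes. The unnamed nuclei held 18.2% of all UMIs of the table, but 42.0% of the UMIs of Aldh2, 39.3% of Cat, 38.6% of Aldh1a1, and 34.5% of Adh5. For Acss2 the share was 8.78%. In the few-UMI nuclei Aldh2 stood at 66.7 ± 8.63 CPM and Adh5 at 56.2 ± 11.7 CPM. Which cells this RNA came from was not tested.

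Differences between neuronal types are given as a description, and no tracer level was computed for the types. Of 10 types, Pvalb interneurons (fast-spiking inhibitory cells) had the highest Acss2, from 74.8 to 236 CPM with a median of 109 CPM (mean 121 ± 40.1 CPM). They were highest of all types in 15 of 16 mice, and the next type, the layer 5 extratelencephalic neurons (L5 ET), stood at 83.4 ± 22.5 CPM. Near-projecting neurons of the deep layers (L5/6 NP) had the most Aldh2, at 34.2 ± 9.79 CPM, highest in 12 of 16 mice, and the most Aldh3a2, at 36.5 ± 13.5 CPM, highest in 7 of 16. Their nuclei had a median of 1675 UMIs, against 2125 to 3109 in the other glutamatergic types. Acss1 was highest in Lamp5 interneurons, at 15.6 ± 13.9 CPM from 31 UMIs and in 10 of 16 mice. For the other 5 enzymes, the type with the highest mean was highest of all types in at most 6 of 16 mice.

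**Figure D2:**
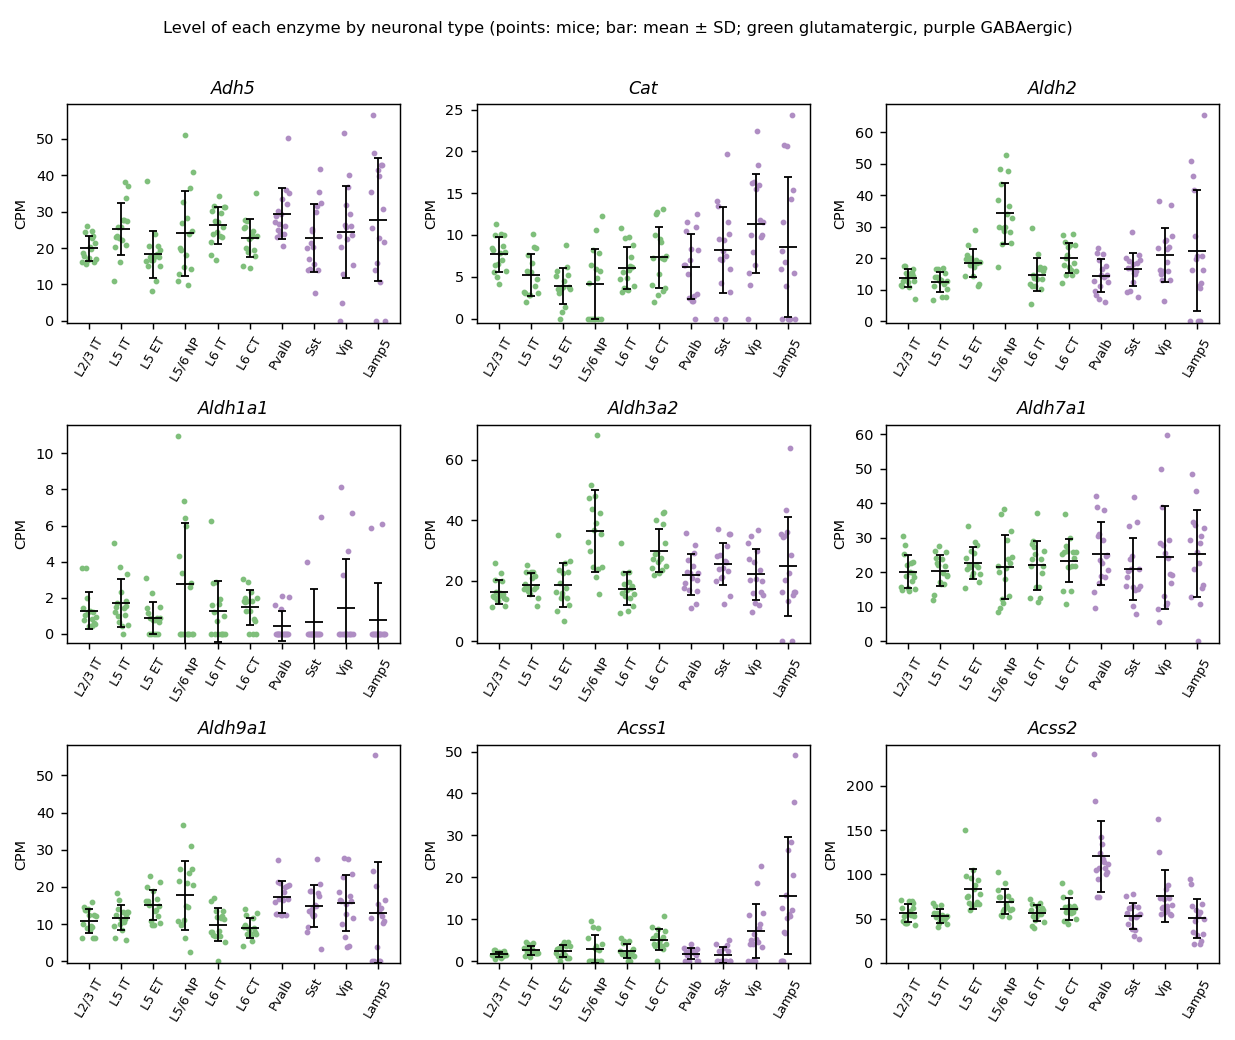
Level of each enzyme in CPM (linear axes, a scale per gene) in 6 glutamatergic (green) and 4 GABAergic (purple) neuronal types. Points are mice with at least 10 nuclei of the type and black bars the mean ± SD. Acss2 stood at 121 CPM in Pvalb interneurons, and Aldh2 at 34.2 CPM in L5/6 NP neurons.

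Genes whose levels followed each enzyme over 17 class and type means were ranked by Pearson's r of log2(CPM + 1) among 13619 genes. These points share mice and libraries, so r is a description. Among the genes most like Aldh2 were Lamb2 (a laminin chain of vascular basement membranes, r = 0.96) and Slc13a3 (a dicarboxylate transporter, 0.96). Aldh1a1 was most like Sned1 (0.93), Efemp1 (0.92), and the collagen gene Col1a1 (0.91), all highest in the vascular and leptomeningeal class. Aldh7a1 was most like the astrocyte-high genes Pxmp2, Pygb, and Gldc (each 0.96), of which Pygb encodes brain glycogen phosphorylase and Gldc the glycine cleavage enzyme. Aldh9a1 was most like Hibch (0.93), an enzyme of valine breakdown, A930005H10Rik (0.88), and Msi1 (0.88).

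Acss1 was most like Loxl3, Ccdc114, and Smox (each 0.92). Adh5 was most like Gng5 (0.96), Tspo (0.96), and Tnfsf13 (0.95), and Cat like Cdkn1b (0.95), Pmm1 (0.94), and Nudt9 (0.94). Aldh3a2, with the flattest order, had the weakest partners, Cd47 (0.85), Rnf152 (0.81), and Uap1 (0.81), each highest in L5/6 NP neurons. Acss2 was most like Gss (0.94), Acsl6 (0.91), and 4930402H24Rik (0.89). Gss, which makes glutathione, overlaps Acss2 on the other strand, as do Ggt7 and Acss2os. Whether strand was used in counting is not given in the sources used here, so reads of these genes may not be told apart. The same holds for C730002L08Rik at Aldh1a1, Phax at Aldh7a1, and E130215H24Rik at Acss1.

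Promoters of Adh5 and of Aldh1a1 are shown because, among the enzymes compared, they differ most in CpG content. RefSeq promoters (GRCm38.p6) were compared for all enzymes but Aldh2 and Aldh7a1. Of these, Adh5 had the start with the most CpGs and Aldh1a1 that with the fewest. The windows hold the 250 bases before the start, 5′ to 3′ on the plus strand, and capitals mark each CG.
Adh5, chr3:138442843-138443092: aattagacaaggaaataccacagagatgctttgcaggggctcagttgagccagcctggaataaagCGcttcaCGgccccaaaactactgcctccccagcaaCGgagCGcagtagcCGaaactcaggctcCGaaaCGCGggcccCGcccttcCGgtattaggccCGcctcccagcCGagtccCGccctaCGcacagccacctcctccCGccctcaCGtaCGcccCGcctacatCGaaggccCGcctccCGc
Aldh1a1, chr19:20601718-20601967: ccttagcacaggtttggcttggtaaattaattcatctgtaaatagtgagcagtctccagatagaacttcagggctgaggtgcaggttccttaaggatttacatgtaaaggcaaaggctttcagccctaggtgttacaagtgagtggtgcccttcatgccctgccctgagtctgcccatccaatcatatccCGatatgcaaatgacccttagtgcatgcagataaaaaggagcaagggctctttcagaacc
The Adh5 window held 21 CGs and that of Aldh1a1 held 1, against a median of 6 over 32851 promoters of the same length, of which 85.2% and 18.8% had at most that many. This Aldh1a1 start lies inside the gene. Before another start of Aldh1a1 the window held 3, and before another of Adh5 it held 2. Adh5 lies at chr3:138443093-138455499 and Aldh1a1 at chr19:20492715-20643465, both on the plus strand.

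The groups were compared on counts summed per mouse, with edgeR's quasi-likelihood test and Benjamini-Hochberg adjustment over all genes of a class and contrast. A gene was called where the adjusted p did not exceed 0.05. Where counts were too low for the test, genes were left out by edgeR's filter. All 9 enzymes passed it over all nuclei and in glutamatergic neurons, 8 in astrocytes (not Aldh1a1), and 7 in GABAergic neurons (not Aldh1a1 and Acss1). In oligodendrocytes Acss2, in microglia Adh5, and in vascular and leptomeningeal cells Aldh2 alone passed, and in OPCs none did. This made 27 tests by class and 9 over all nuclei for each contrast. In sums over all nuclei, fewer cells of a type and less RNA per cell cannot be told apart.

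Alcohol was followed by no called enzyme. In WT alcohol versus WT control mice, 0 of 27 class tests and 0 of 9 over all nuclei were called, where 0.0214% and 0.0179% of all tests were. At an unadjusted p under 0.05 there were 3 (11.1%) and 1 (11.1%), where 10.3% and 14.2% of all tests were. In 3xTg-AD alcohol versus 3xTg-AD mice, again 0 of 27 and 0 of 9 were called, where 0.314% and 0.483% of all tests were, and 0 and 0 had an unadjusted p under 0.05 (9.68% and 12.01% of all tests). Over both genotypes, alcohol had 0 of 27 and 0 of 9 calls, beside 1.48% and 3.3% of all tests, with 3 (11.1%) and 1 (11.1%) at an unadjusted p under 0.05, where 15.3% and 20.9% of all tests were. DESeq2 called 0 of the enzymes for which it gave an adjusted p in these contrasts, which share mice. Over both genotypes, the median log2 fold change of the enzymes was -0.05 over the 27 class tests and 0.11 over all nuclei, where the medians of all tests were 0.0025 and 0.0065.

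The smallest adjusted p for alcohol belonged to Acss2. Over all nuclei its 4 WT control mice, in the order of mice 26, 27, 28, and 36, stood at 85.1, 72.9, 55.1, and 58.9 CPM. WT alcohol mice 6, 7, 17, and 18 stood at 51.6, 47.3, 56.4, and 52.6 CPM. 3xTg-AD mice 12, 13, 14, and 21 stood at 76.1, 67.0, 57.2, and 60.1 CPM. 3xTg-AD alcohol mice 4, 31, 33, and 34 stood at 57.3, 64.2, 52.4, and 58.3 CPM. The groups overlapped in both genotypes, and the 3 highest values (85.1, 76.1, and 72.9 CPM) came from the 3 mice with much Gm42418. The log2 fold change over both genotypes was -0.31 (SE 0.12, edgeR adjusted p = 0.137), and in WT mice alone -0.46 (SE 0.16, adjusted p = 0.279). It was -0.28 in glutamatergic neurons (SE 0.11, adjusted p = 0.176), -0.45 in GABAergic neurons (SE 0.19, adjusted p = 0.256), and -0.31 in astrocytes (SE 0.18, adjusted p = 0.476). Without WT control mouse 36, the value in GABAergic neurons was -0.57 and passed (adjusted p = 0.0393).

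Aldh2 did not pass with alcohol in any class. Over all nuclei its log2 fold change over both genotypes was 0.13 (SE 0.12, edgeR adjusted p = 0.554), in astrocytes 0.24 (SE 0.15, adjusted p = 0.482), and in vascular and leptomeningeal cells 0.15 (SE 0.19, adjusted p = 0.804). In the latter, its lowest, median, and highest mouse stood at 100, 167, and 192 CPM in WT controls and at 166, 171, and 193 CPM in WT alcohol mice. The 2 groups overlapped. Cat had a fold change of 0.11 (SE 0.13) and Adh5 of 0.13 (SE 0.10) over all nuclei, and the largest class value not given above was -0.40, for Acss2 in oligodendrocytes (SE 0.24, adjusted p = 0.570).

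**Figure D3:**
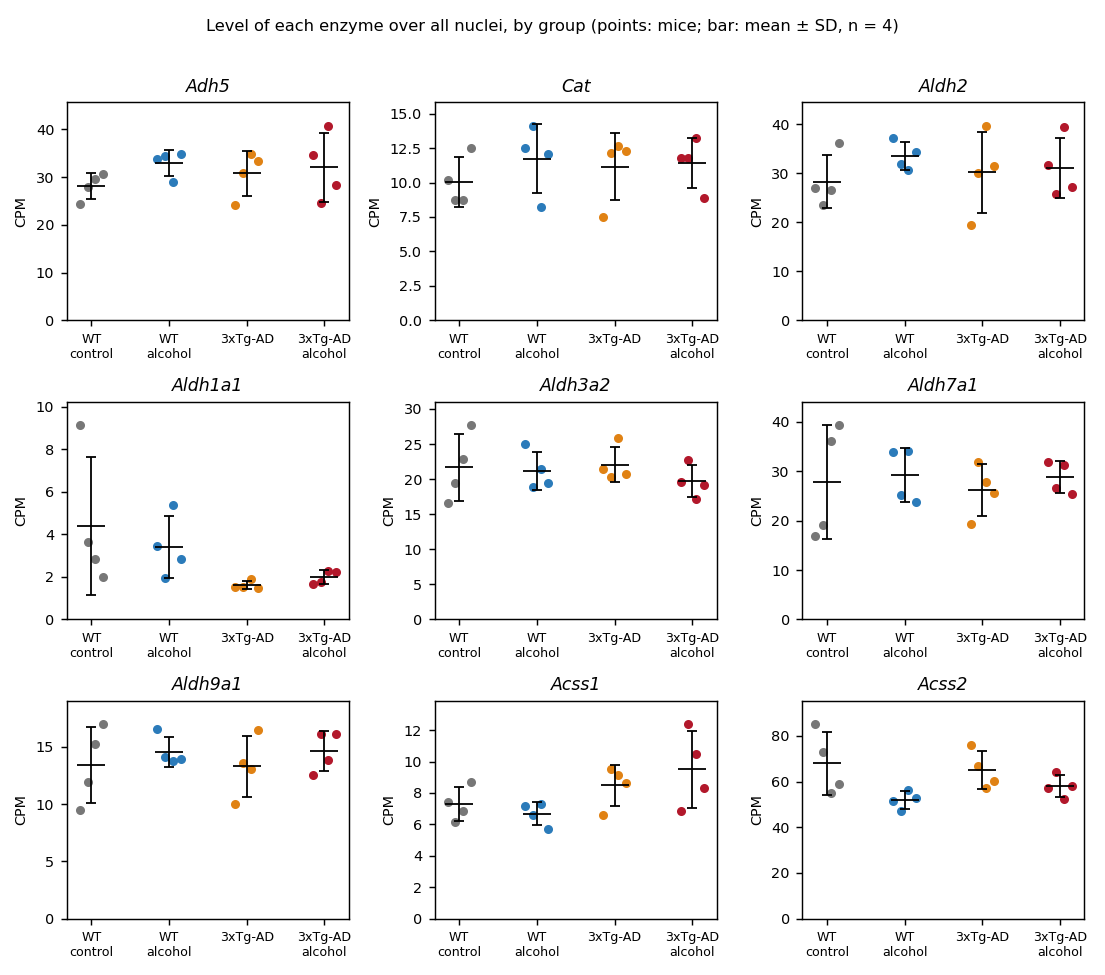
Level of each enzyme over all nuclei in CPM (linear axes from 0, a scale per gene) in the 4 groups. Points are mice and bars the mean ± SD (n = 4). The groups overlapped for Acss2, and the 8 3xTg-AD mice stood between 1.46 and 2.26 CPM for Aldh1a1.

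Genotype was followed by a single called enzyme. Over both treatments, 0 of 27 class tests were called and 1 of 9 over all nuclei, Aldh1a1, where 1.61% and 3.28% of all tests were. At an unadjusted p under 0.05 there were 1 (3.7%) and 2 (22.2%), where 11.5% and 16.2% of all tests were. In 3xTg-AD versus WT control mice, 0 of 27 and 0 of 9 were called (0.264% and 0.435% of all tests), with 1 and 1 at an unadjusted p under 0.05 (6.72% and 8.18% of all tests). In 3xTg-AD alcohol versus WT alcohol mice, 0 of 27 and 0 of 9 were called (0.589% and 0.942% of all tests), with 1 and 1 at an unadjusted p under 0.05 (9.69% and 14.0037% of all tests). In 3xTg-AD alcohol versus WT control mice, 0 of 27 and 0 of 9 were called (1.86% and 4.06% of all tests), with 2 (7.41%) and 2 (22.2%) at an unadjusted p under 0.05, where 14.7% and 20.1% of all tests were. DESeq2 called 0 enzymes in these 3 contrasts. Over both treatments, the median of the enzymes was -0.0093 over the class tests and -0.0007 over all nuclei, where the medians of all tests were -0.0025 and -0.0062. The interaction of genotype and alcohol had 0 of 27 and 0 of 9 calls (0.00357% and 0% of all tests), 0 and 0 at an unadjusted p under 0.05 (4.18% and 3.48% of all tests), and 0 with DESeq2.

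Aldh1a1 was lower in 3xTg-AD mice. Over all nuclei WT control mice 26, 27, 28, and 36 stood at 9.14, 3.64, 2.84, and 1.98 CPM. WT alcohol mice 6, 7, 17, and 18 stood at 3.47, 1.96, 5.36, and 2.84 CPM. 3xTg-AD mice 12, 13, 14, and 21 stood at 1.53, 1.53, 1.89, and 1.46 CPM, and 3xTg-AD alcohol mice 4, 31, 33, and 34 at 1.65, 1.75, 2.26, and 2.25 CPM. All 3xTg-AD mice were low, and 2 of the 8 WT mice stood in their range. The log2 fold change was -1.17 (SE 0.30, edgeR adjusted p = 0.0409; DESeq2 -1.16, adjusted p = 0.00964).

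The call rested on few UMIs and on single mice. Without WT control mouse 26, the highest, the fold change was -0.79 (adjusted p = 0.0681). Of the 128 Aldh1a1 UMIs of that mouse, 66 lay in unnamed nuclei. Leaving out any of 12 of the 16 mice ended the call (adjusted p 0.0564 to 0.0895 in these). Without the 3 mice with much Gm42418 it was -0.65 (adjusted p = 0.181), and with the Gm42418 share as a covariate -0.73 (adjusted p = 0.126). In the named nuclei alone it was -0.99 (adjusted p = 0.0863), in glutamatergic neurons -1.02 (SE 0.35, adjusted p = 0.139), and in astrocytes, without the filter, -1.23 (SE 0.37, adjusted p = 0.0671).

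Cell classes that hold more Aldh1a1 were compared with it. The 8 VLMC markers, of which 0 were at 0, summed over all nuclei to 17.8 to 34.6 CPM in WT control, 20.1 to 46.8 CPM in WT alcohol, 16.5 to 23.3 CPM in 3xTg-AD, and 25.0 to 35.7 CPM in 3xTg-AD alcohol mice. The 11 astrocyte markers, of which 0 were at 0, summed to 1429 to 1996, 1686 to 2312, 1174 to 2080, and 1842 to 2566 CPM in the same order. The 8 oligodendrocyte markers, of which 0 were at 0, summed to 242 to 735, 295 to 705, 395 to 515, and 407 to 755 CPM. These ranges overlapped between genotypes, and their part in the result was not tested.

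Acss1 went the other way without passing. Over all nuclei it stood at 7.28 ± 1.07 CPM in WT control, 6.69 ± 0.71 CPM in WT alcohol, 8.49 ± 1.30 CPM in 3xTg-AD, and 9.49 ± 2.43 CPM in 3xTg-AD alcohol mice (SD, n = 4). The log2 fold change by genotype was 0.35 (SE 0.12, edgeR adjusted p = 0.118), and in mice exposed to alcohol 0.53 (SE 0.17, adjusted p = 0.152). In astrocytes, the class with the largest share of its UMIs, the value in the alcohol-exposed mice was 0.43 (adjusted p = 0.452). The share of named astrocytes among nuclei was 6.05 ± 0.44%, 5.82 ± 0.66%, 7.17 ± 0.62%, and 8.05 ± 0.66% in the same order of groups and moved with Acss1. The astrocyte marker sums over all nuclei did not, at 1779 ± 246, 1973 ± 272, 1754 ± 402, and 2148 ± 348 CPM. The part of astrocyte content in the result was not tested. For the other 7 enzymes, the genotype values over all nuclei lay between -0.05 (Aldh7a1, SE 0.14) and 0.05 (Cat, SE 0.13).

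**Figure D4:**
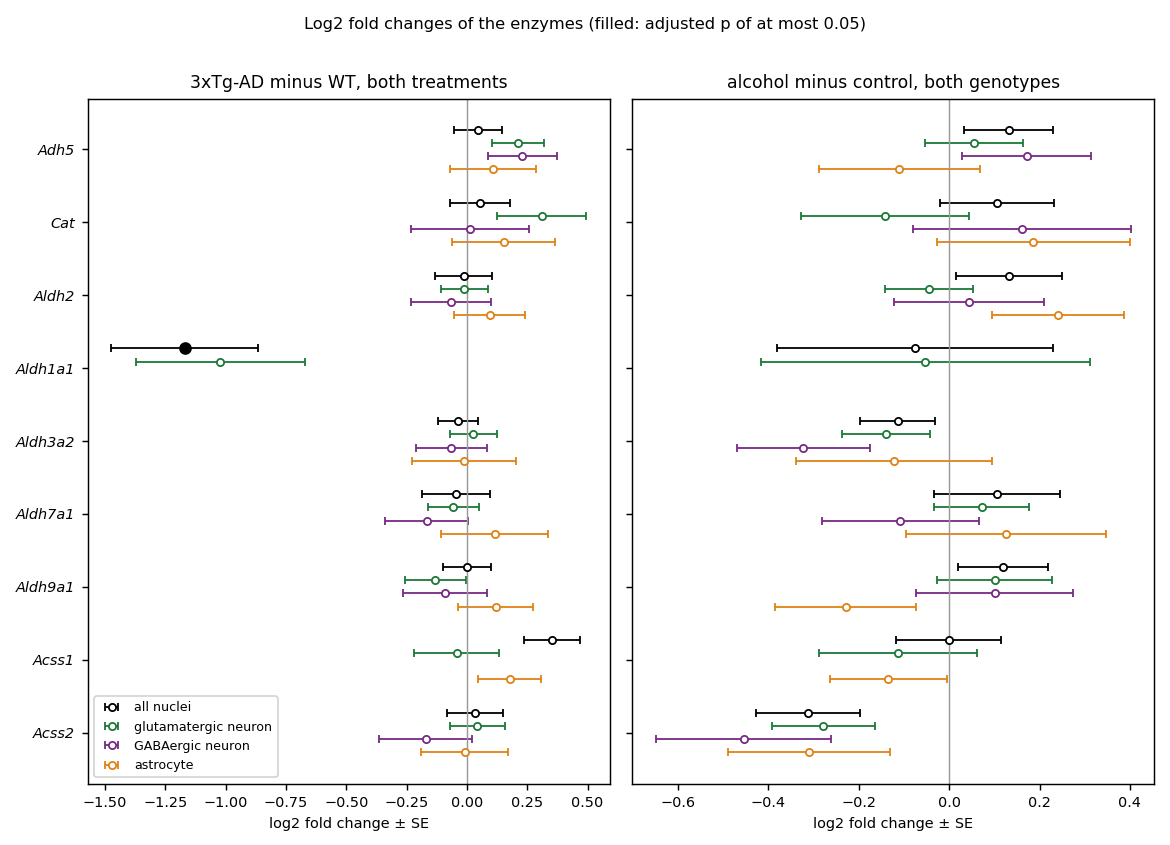
Log2 fold changes of the enzymes with their SE (edgeR), by genotype over both treatments (left) and by alcohol over both genotypes (right), over all nuclei and in the 3 classes with most tests; each panel has its own axis. The filled point, Aldh1a1 over all nuclei at -1.17, is the single value with an adjusted p of at most 0.05.

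Other genes of the pathway were taken from a list of 46, chosen by function, of which 42 were in the table. The alcohol dehydrogenases Adh1, Adh4, Adh6a, and Adh7 were not among its genes, and Cyp2e1 had 5 UMIs in all nuclei together. Over all contrasts, 10 tests were called, all higher, and they came from 4 genes, Esd, Prdx1, Prdx3, and Aldh1l2. For alcohol over both genotypes, 3 of 150 class tests (2%) and 1 of 38 over all nuclei (2.63%) were called, and for genotype over both treatments 2 of 150 (1.33%) and 0 of 38, where 1.48%, 3.3%, 1.61%, and 3.28% of all tests were. The other 4 calls were 1 of 150 class tests (0.667%) in each of 3xTg-AD versus WT control, 3xTg-AD alcohol versus WT alcohol, and 3xTg-AD alcohol versus WT control mice, where 0.264%, 0.589%, and 1.86% of all tests were called, and 1 of 38 over all nuclei (2.63%) in the last, where 4.06% were. Of the 12 genes of peroxide handling, 3 of 70 class tests were called with alcohol, and the median log2 fold change was 0.19. The 15 other aldehyde dehydrogenases had 0 of 21 with alcohol (median -0.02) and 1 of 21 with genotype (median -0.02). The 5 reductases and the 8 genes of acetate and acetyl-CoA had no call in either. These medians stand beside 0.0025 for all class tests with alcohol and -0.0025 with genotype.

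Esd, which releases formate from the product of Adh5, was higher in glutamatergic neurons of 3xTg-AD than of WT control mice. WT control mice 26, 27, 28, and 36 stood at 29.8, 25.5, 26.4, and 35.2 CPM. 3xTg-AD mice 12, 13, 14, and 21 stood at 40.4, 49.1, 57.6, and 55.9 CPM, all above the controls. The log2 fold change was 0.75 (SE 0.15, edgeR adjusted p = 0.0322), and over both treatments 0.48 (SE 0.11, adjusted p = 0.0180). The latter call was kept in all 23 alternatives, whereas the former was lost in 7, which were those without 3xTg-AD mouse 13, 14, or 21, without WT control mouse 27, 28, or 36, and without the 3 mice with much Gm42418 (0.67 to 0.87 over all 23, highest adjusted p = 0.118). WT alcohol mice stood above the WT controls, at 35.7, 37.7, 48.8, and 40.6 CPM for mice 6, 7, 17, and 18, and 3xTg-AD alcohol mice at 50.8, 39.3, 54.3, and 38.8 CPM for mice 4, 31, 33, and 34. In 3xTg-AD alcohol versus WT control mice the value was 0.65 in these neurons (SE 0.15, adjusted p = 0.0263, lost in 4 of 23 alternatives) and 0.65 over all nuclei (SE 0.17, adjusted p = 0.0428, lost in 13 of 25). In 3xTg-AD alcohol versus WT alcohol mice it was 0.21 (SE 0.15, adjusted p = 0.600) and was not called. In the unnamed nuclei of few UMIs Esd stood at 94.4, 123, 138, and 162 CPM in WT control, WT alcohol, 3xTg-AD, and 3xTg-AD alcohol mice, and after subtraction of its tracer level, a comparison added after the calls were seen, 12.4 ± 2.19, 19.8 ± 6.71, 25.8 ± 5.46, and 19.97 ± 4.68 CPM were left in glutamatergic neurons (SD, n = 4). The values left were 20.6 to 32.9 CPM in 3xTg-AD mice and 10.7 to 15.3 CPM in WT controls. The part of free RNA in the Esd calls was not tested. Adh5 itself, in the same neurons, had a fold change by genotype of 0.21 (SE 0.11, adjusted p = 0.363).

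The peroxiredoxins Prdx1 (cytosolic) and Prdx3 (mitochondrial), which like catalase reduce hydrogen peroxide, were called as higher with alcohol over both genotypes. The calls were in astrocytes, in glutamatergic neurons, and over all nuclei for Prdx1, and in GABAergic neurons alone for Prdx3. Within a genotype, none of the peroxide handling genes was called with alcohol by edgeR (0 of 70 class tests and 0 of 12 over all nuclei in each). In astrocytes Prdx1 stood at 102, 134, 138, and 137 CPM in WT control mice 26, 27, 28, and 36, and at 245, 257, 205, and 184 CPM in WT alcohol mice 6, 7, 17, and 18. It stood at 123, 160, 181, and 158 CPM in 3xTg-AD mice 12, 13, 14, and 21, and at 213, 132, 252, and 151 CPM in 3xTg-AD alcohol mice 4, 31, 33, and 34. The WT groups did not overlap and the 3xTg-AD groups did. In WT mice the log2 fold change was 0.76 (SE 0.17, edgeR adjusted p = 0.0948) and in 3xTg-AD mice 0.32 (SE 0.16, adjusted p = 0.559). Over both genotypes the log2 fold change was 0.54 (SE 0.12, edgeR adjusted p = 0.00948), and it was lost with the Gm42418 covariate (0.51, adjusted p = 0.0866) and without 3xTg-AD alcohol mouse 33 (0.44, adjusted p = 0.0659). Prdx1 was also called in glutamatergic neurons (0.38, SE 0.09, adjusted p = 0.0339, lost in 10 of 23 alternatives) and over all nuclei (0.47, SE 0.12, adjusted p = 0.0450, lost in 14 of 25), in both also without the 3 mice with much Gm42418 (0.28 and 0.35, adjusted p = 0.0842 and 0.125). Prdx1 in the unnamed nuclei of few UMIs moved the same way, at 200.3 ± 40.2, 301 ± 20.999, 225 ± 34.8, and 279.8 ± 44.7 CPM in WT control, WT alcohol, 3xTg-AD, and 3xTg-AD alcohol mice (SD, n = 4). After subtraction of the tracer level, 32.8 ± 28.7, 75.8 ± 20.7, 53.1 ± 9.26, and 61.6 ± 31.6 CPM were left in astrocytes, and the groups overlapped in both genotypes. In glutamatergic neurons 9.44 ± 3.66, 14.3 ± 9.42, 11.4 ± 6.45, and 14.7 ± 4.36 CPM were left, also with overlap. Layer 6 intratelencephalic neurons (L6 IT) were 4.90% to 18.1% of the glutamatergic nuclei in WT control, 14.9% to 31.6% in WT alcohol, 3.84% to 18.1% in 3xTg-AD, and 10.1% to 33.7% in 3xTg-AD alcohol mice. The 9 microglial markers, of which 0 were at 0, summed over all nuclei to 85.3 to 130.1, 125 to 172, 100.3 to 171, and 145 to 211 CPM in the same order. The part of these in the calls was not tested.

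In GABAergic neurons Prdx3 stood at 11.1, 10.2, 12.3, and 15.7 CPM in WT control mice and at 24.4, 36.1, 23.4, and 19.2 CPM in WT alcohol mice, in the same order of mice. It stood at 9.38, 17.2, 16.8, and 13.03 CPM in 3xTg-AD mice and at 21.5, 20.8, 23.2, and 21.5 CPM in 3xTg-AD alcohol mice. In both genotypes the alcohol mice lay above the controls without overlap. Prdx3 over all nuclei was 16.8 ± 6.02, 25.7 ± 2.15, 18.4 ± 4.60, and 21.5 ± 3.66 CPM in WT control, WT alcohol, 3xTg-AD, and 3xTg-AD alcohol mice (SD, n = 4), and in the nuclei of few UMIs 38.6 ± 17.4, 51.0 ± 3.60, 39.6 ± 9.51, and 46.6 ± 8.86 CPM. After subtraction of the tracer level, 1.23 ± 4.70, 12.6 ± 7.18, 2.66 ± 1.52, and 9.18 ± 3.35 CPM were left in GABAergic neurons. The WT groups then overlapped by 1 value (up to 5.98 against 5.85 CPM and above), and the 3xTg-AD groups did not (up to 4.41 against 6.57 CPM and above). The part of free RNA in the call was not tested. The log2 fold change over both genotypes was 0.79 (SE 0.16, edgeR adjusted p = 0.0080). It was 0.96 in WT mice (SE 0.23, adjusted p = 0.0794) and 0.62 in 3xTg-AD mice (SE 0.23, adjusted p = 0.306). The pooled call was lost only with the Gm42418 covariate among 23 alternatives (0.58, adjusted p = 0.121). Cat in the same neurons had a value of 0.16 (SE 0.24, adjusted p = 0.792).

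Aldh1l2, the mitochondrial formyltetrahydrofolate dehydrogenase, was higher in GABAergic neurons of 3xTg-AD mice over both treatments. WT control mice 26, 27, 28, and 36 stood at 26.1, 12.7, 14.9, and 14.97 CPM, and WT alcohol mice 6, 7, 17, and 18 at 13.95, 19.95, 13.6, and 6.97 CPM. 3xTg-AD mice 12, 13, 14, and 21 stood at 16.9, 26.3, 39.8, and 35.4 CPM, and 3xTg-AD alcohol mice 4, 31, 33, and 34 at 15.2, 46.1, 33.96, and 43.9 CPM. The genotypes overlapped in single mice. The log2 fold change over both treatments was 1.04 (SE 0.24, edgeR adjusted p = 0.0225), and the call was lost in 5 of 23 alternatives, the Gm42418 covariate among them, with values of 0.93 to 1.28 over all 23. Leaving out WT control mouse 36, 3xTg-AD mouse 14 or 21, or 3xTg-AD alcohol mouse 31 ended it as well (highest adjusted p = 0.0628). In alcohol-exposed mice alone it was 1.38 (SE 0.33, adjusted p = 0.0491), lost in 13 of 23 alternatives, and in 3xTg-AD versus WT control mice 0.70 (SE 0.35, adjusted p = 0.736), not called. Its tracer level in these neurons was at most 1.96 CPM in any mouse. The annotated Aldh1l2 gene overlaps D10Wsu102e on the other strand, and reads were not examined.

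**Figure D5:**
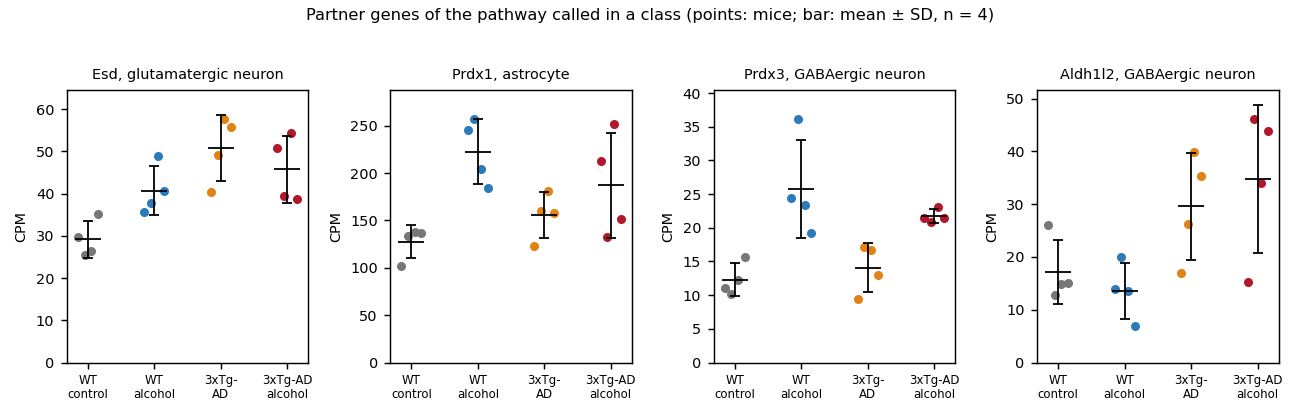
Levels in CPM (linear axes from 0) of the 4 other pathway genes that were called, each in the class named in its title, in the 4 groups. Points are mice and bars the mean ± SD (n = 4). Prdx3 lay higher in all 8 alcohol mice than in the controls of their genotype, and Esd was above all 4 WT controls in each of the 4 3xTg-AD mice.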

How the data were processed

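The authors aligned reads of nuclei of the medial PFC to mm10 with Cell Ranger 6.1.1, based on STAR, and deposited UMI counts per gene and nucleus, without normalization. The 16 mice were grouped by their labels. Whether intron reads or strand were used is not given in the sources used here, and all nuclei of the table were used, more than the study's text counts. The enzymes and gene lists were chosen with earlier results of these data known.

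Counts were scaled to 10000 per nucleus, and 2000 variable genes without the enzymes and pathway genes, 30 components, 20 neighbors, and Leiden clustering at a resolution of 1.5 gave 22 clusters (scanpy 1.11.5). Neuronal classes were named from limits on Slc17a7 and Gad1, and a neuronal type where at least 3 of its markers were raised 1.5-fold. The other classes needed at least 3 markers raised 1.5-fold and a limit on Slc17a7. These limits were set after the clusters were seen. Scrublet marked 47 nuclei, too few to use, so leaving out the 6% with the highest scores was an alternative. Counts were summed per mouse and class (at least 10 nuclei, at least 3 mice per group) and fitted with edgeR 4.0.16 in R 4.3.3 (TMM, filterByExpr, robust quasi-likelihood, 4 group means). The test recovered 137 of 200 genes changed 2-fold in simulated counts, with 9 false calls, for 3xTg-AD alcohol versus WT control glutamatergic neurons (15258 genes), and 113 of 200, with 6 false calls, for microglia (6097 genes). DESeq2 1.42.0 was an alternative. All 9 enzymes are named, other pathway genes where called, and per enzyme the 3 genes of highest correlation, of which 1 is not reported here. Depth differed by class, and a small change in a gene with few UMIs would not show. The errors are SDs between mice and hold counting error too.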

Additional observations from a re-analysis of the deposited data

Results flagged for a closer look

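In 8 of 144 sets of 4 mice, 1 mouse stood far from the other 3 by Dixon's criterion, and chance marks about 1 set in 20. A set was an enzyme in a group, over all nuclei or in a class where the enzyme passed edgeR's filter. Over all nuclei, Cat was 7.502 CPM in 3xTg-AD mouse 12, against 12.2 to 12.7 CPM in the others of its group. Aldh1a1 was 1.89 CPM in 3xTg-AD mouse 14, against 1.46 to 1.53 CPM. Aldh9a1 was 16.5 CPM in WT alcohol mouse 6, against 13.7 to 14.1 CPM. In glutamatergic neurons, Aldh1a1 was 4.43 CPM in WT control mouse 26, against 1.123 to 1.45 CPM, and 1.35 CPM in 3xTg-AD alcohol mouse 33, against 0.92 to 0.97 CPM. In GABAergic neurons, Aldh7a1 was 26.6 CPM in 3xTg-AD alcohol mouse 4, against 19.7 to 20.8 CPM. In astrocytes, Aldh9a1 was 36.9 CPM in 3xTg-AD alcohol mouse 33, against 42.6 to 43.5 CPM, and Acss1 was 64.2 CPM in WT alcohol mouse 7, against 49.2 to 51.4 CPM.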

How the results depend on the processing

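Mice could not be paired between groups, because each group held different mice. Among 24 alternatives to the fit, enzymes called in 3xTg-AD alcohol versus WT control mice numbered 0, but 1 with the Gm42418 covariate (Aldh7a1 in GABAergic neurons, -0.91, adjusted p = 0.0327), and 0 to 2 with a mouse left out. For alcohol over both genotypes they numbered 0 to 1 with a mouse left out, and for genotype over both treatments 0 with the covariate, 0 without the 3 mice with most Gm42418, and 0 to 1 with a mouse left out. The 2 calls without WT control mouse 36 versus 3xTg-AD alcohol mice were Aldh1a1 over all nuclei and Acss2 in GABAergic neurons. In the other 5 contrasts every alternative gave 0. Calls of other pathway genes numbered 10, but 17 with the covariate, 22 with DESeq2, and 4 to 13 with a mouse left out. Of 54 pairs of neighboring classes 14 passed, 27 after subtraction of the tracer level (8 of them in the other direction, 11 of the 14 kept), 10 without the highest doublet scores, and 13 on the log2(CPM + 10) scale. On that scale the difference of Cat between vascular and leptomeningeal cells and astrocytes turned to -0.0491. The cause of these changes was not tested. Depth limited the tests by class, since no enzyme passed the filter in OPCs and a single one did in each of 3 further classes. The tracer comparison and the fit in named nuclei alone were chosen after seeing the data.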

Other observations

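Across the 17 class and type means, which share mice and libraries, the enzymes did not split cleanly by their highest class (Pearson's r of log2(CPM + 1), as a description). Aldh2 went with Aldh1a1 (r = 0.87) and Adh5 (0.86), and Adh5 with Cat (0.81). Aldh7a1, highest in astrocytes, went with Acss1 (0.78) and Aldh9a1 (0.70), but as closely with Cat (0.75) and Aldh2 (0.75), and Cat went with Acss1 (0.73). Acss2 was nearest to Aldh9a1 (0.52) and had r of -0.36 with Adh5, -0.27 with Aldh2, and -0.11 with Acss1. Aldh3a2 was nearest to Aldh2 (0.48) and near 0 with Acss1 (0.06) and Acss2 (-0.07).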
